A study of Mus musculus with 15 samples.

Results

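The 6 arrays of day 6 carried a division that their labels do not name. On one side lay replicates 1 and 3 of the CDL medium with replicate 1 of the RDL medium, called the first side here, and on the other lay CDL replicate 2 with RDL replicates 2 and 3, called the second side. These 6 were part of 15 arrays in all. The sides were chosen by the measured signals of these same 6 arrays, so every difference between them given here is a description, with no mean or error over a side, and no result rests on a test of the sides. The question was which classes of genes varied between samples across both media.

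All 6 samples were mouse ES cells of line CK35, strain 129Sv, differentiated without serum for 6 days and sorted as positive for a Pax3-GFP reporter. BMP4 at 10 ng/ml was given for 2 days, and after it came DMSO at 0.5% together with LDN, which blocks BMP receptors, at 0.1 µM. The RDL medium also held the Wnt agonist Rspo3 at 10 ng/ml, and the CDL medium held in its place CHIRON99021, an inhibitor of the kinase GSK3, at 1 µM. Both media thus shared the BMP4 pulse, the DMSO and the LDN, and no day 6 group was left without a Wnt activator. The other 9 arrays were 3 each of undifferentiated E14 ES cells (strain 129P2) kept with CHIRON99021, PD0325901 and LIF at day 0, and of E14 cells sorted for the Msgn1repV reporter at day 4 in RDL or CDL. The labels call the 3 samples of each group biological replicates but do not say that they were separate cultures, so p-values measure the spread between these samples. Day 6 was represented by 1 cell line with 1 reporter, and by sorted cells only.

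Pax3 encodes a paired-box transcription factor of the forming somite and its dermomyotome, the epithelium from which skeletal muscle and dermis arise. Cells of the paraxial mesoderm pass from a presomitic state, kept by Wnt and FGF signals, to a segmented state in which genes such as Meox1, Tcf15, Uncx and Foxc1 are on. Among the gene classes met here, mitochondrial ribosomal proteins translate the few messages of the mitochondrial genome, and NADH dehydrogenase subunits build the first complex of the respiratory chain. Histone lysine methyltransferases and demethylases write and erase histone marks, and SWI/SNF subunits form a complex that moves nucleosomes. Collagens and fibronectin build the extracellular matrix.

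Gene start sequences are shown for the genes with the largest separation in each direction that had an entry, because the sides differed in the base composition of this region (given further on). Commd1 and Zfp800 were higher on the first side, and Col1a2 and Ptprf on the second. Each run is the 250 bases before an annotated start, 5′ to 3′ on the gene's strand, from RefSeq on build GRCm38.p6. Capitals mark GC boxes, meaning GGGCGG or its reverse complement CCGCCC. The windows are Commd1 at chr11:22982285-22982534 on the minus strand, Zfp800 at chr6:28398006-28398255 on the minus strand, Col1a2 at chr6:4505368-4505617 on the plus strand and Ptprf at chr4:118291398-118291647 on the minus strand. Commd1 and Zfp800 had 2 listed starts each, of which the first is printed.
Commd1: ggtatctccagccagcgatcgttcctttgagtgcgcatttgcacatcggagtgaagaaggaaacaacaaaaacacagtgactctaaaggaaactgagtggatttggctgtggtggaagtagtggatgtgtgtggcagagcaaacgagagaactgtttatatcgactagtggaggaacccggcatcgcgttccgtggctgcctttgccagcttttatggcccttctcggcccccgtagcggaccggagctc
Zfp800: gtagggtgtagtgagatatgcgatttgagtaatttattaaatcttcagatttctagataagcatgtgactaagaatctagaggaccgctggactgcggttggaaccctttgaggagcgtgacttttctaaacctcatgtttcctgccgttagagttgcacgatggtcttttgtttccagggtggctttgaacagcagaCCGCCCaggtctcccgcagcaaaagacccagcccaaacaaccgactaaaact
Col1a2: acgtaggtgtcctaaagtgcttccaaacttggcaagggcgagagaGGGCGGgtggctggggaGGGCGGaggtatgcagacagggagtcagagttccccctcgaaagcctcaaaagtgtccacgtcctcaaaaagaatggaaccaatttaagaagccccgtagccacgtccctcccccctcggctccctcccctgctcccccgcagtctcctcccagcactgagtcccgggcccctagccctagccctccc
Ptprf: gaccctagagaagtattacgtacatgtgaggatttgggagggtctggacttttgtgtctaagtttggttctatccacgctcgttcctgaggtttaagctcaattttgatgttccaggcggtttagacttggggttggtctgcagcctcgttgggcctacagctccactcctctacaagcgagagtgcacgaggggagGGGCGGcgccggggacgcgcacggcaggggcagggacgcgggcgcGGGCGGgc
G and C made up 52.8% of the Commd1 window and 46.4% of the Zfp800 window, against 62% for Col1a2 and 59.2% for Ptprf. The Commd1 window held 0 GC boxes, the Zfp800 window 1, and those of Col1a2 and Ptprf 2 each.

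Signals are the deposited intensities on a linear scale, and differences are on the log2(signal + 12.6) scale. Across the 15 arrays the median signal lay between 29.4 and 31.2, and precision is limited by having 15 arrays. Markers of the labelled cell type were present: at day 6 Meox1, a homeobox gene of somites, lay between 1595 and 2538 on the 6 arrays, Tcf15 between 256 and 1408, and Foxc2 between 449.6 and 1496. The muscle gene Myod1 stayed between 16.1 and 21.2, the neural crest gene Foxd3 between 10.6 and 12.1, the neural gene Sox1 between 27.7 and 42.2 and the pluripotency gene Esrrb between 8.74 and 15.7. Markers of other types were not all low. The endothelial gene Kdr lay between 139 and 157 in RDL and between 53.1 and 88.3 in CDL at day 6, against 51.7 to 68.2 in RDL at day 4. The endoderm gene Sox17 lay between 49.7 and 119.9 in RDL and between 25.4 and 26.9 in CDL at day 6, against 7.10 to 8.33 in RDL at day 4. At day 4, CDL replicate 1 stood apart by its pluripotency genes. Nanog gave 1441, 40.9 and 41.4 on CDL replicates 1, 2 and 3, and Zfp42 gave 1505, 88.1 and 60.4, against 5957 to 6343 and 3973 to 4899.9 in ES cells. Its correlation with the mean of its mates was 0.982, the lowest of the 6 day 4 arrays, so results at day 4 are given with and without it. Among all 15 arrays the lowest such correlation was 0.979, that of RDL day 6 replicate 1.

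In bulk samples, fewer cells of a type and less RNA per cell cannot be told apart.

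A gene was counted as apart where all 3 arrays of one side lay above all 3 of the other, and the distance from the lowest of the upper 3 to the highest of the lower 3 was taken as its gap. Of 12400 genes tested, 1859 (15%) were higher on the first side with any gap and 2672 (21.5%) on the second. At a gap of at least 0.25 these counts were 258 (2.08%) and 644 (5.19%). At a gap of at least 0.5, the size fixed for counting, 5 genes (0.0403%) were higher on the first side and 39 (0.315%) on the second, 44 in all (0.355%). No gene reached a gap of 1. The split was therefore wide and shallow, with many genes apart by small amounts.

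Just inside the threshold of 0.5 lay Rida on the first side, with a gap of 0.51, and Slc26a2 on the second, with 0.50. Ddx52 and Dlg5 fell just outside it, both at 0.50 to 2 decimals. With quantile normalization between arrays the count was 43, of which 13 were higher on the first side and 30 on the second, so the balance between the sides moved with the scaling while the total did not. Averaging a gene's probe sets left 22 genes past the threshold. The balance also moved with single arrays, where fewer arrays must separate. Without RDL day 6 replicate 1, 39 genes were higher on the first side and 57 on the second. Without CDL day 6 replicate 2 these counts were 29 and 227.

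The same pattern appeared inside each medium. In CDL, replicate 2 stood away from replicates 1 and 3, and in RDL, replicate 1 stood away from replicates 2 and 3, mostly in opposite directions for the same genes. For 4025 genes (32.5%) CDL replicate 2 was the highest of its medium and RDL replicate 1 the lowest, and for 3095 genes (25%) the reverse held. Both were highest for 1383 genes (11.2%) and both lowest for 652 (5.26%). Across the 12400 genes, the distance of CDL replicate 2 from its mates and that of RDL replicate 1 from its mates had a Pearson r of -0.64. These correlations are across genes, which are not independent replicates, and arrays were read with the same probes.

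Deviations from the mean of each medium correlated at 0.61 between CDL replicate 1 and RDL replicate 1, both on the first side, and at 0.34 between CDL replicate 3 and RDL replicate 1. On the second side they correlated at 0.59 between CDL replicate 2 and RDL replicate 2, and at 0.54 between CDL replicate 2 and RDL replicate 3. All 5 pairs of a CDL and an RDL array from opposite sides were negative, between -0.64 and -0.24. A single axis held 72.9% of the sum of squares within the media, with RDL replicate 1 at -0.67 and CDL replicate 2 at 0.46 as its ends and CDL replicate 3 nearest its middle at -0.18. RDL replicate 1 and CDL replicate 2 had the largest weights, and CDL replicate 3 the least. The large weights are partly fixed, since each of those arrays is alone on its side within its medium. Deviations from the mean of a medium cancel out within it, so the lone array must balance its mates. The signs of the correlations are partly fixed in the same way, and nothing is read from either.

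**Figure D1:**
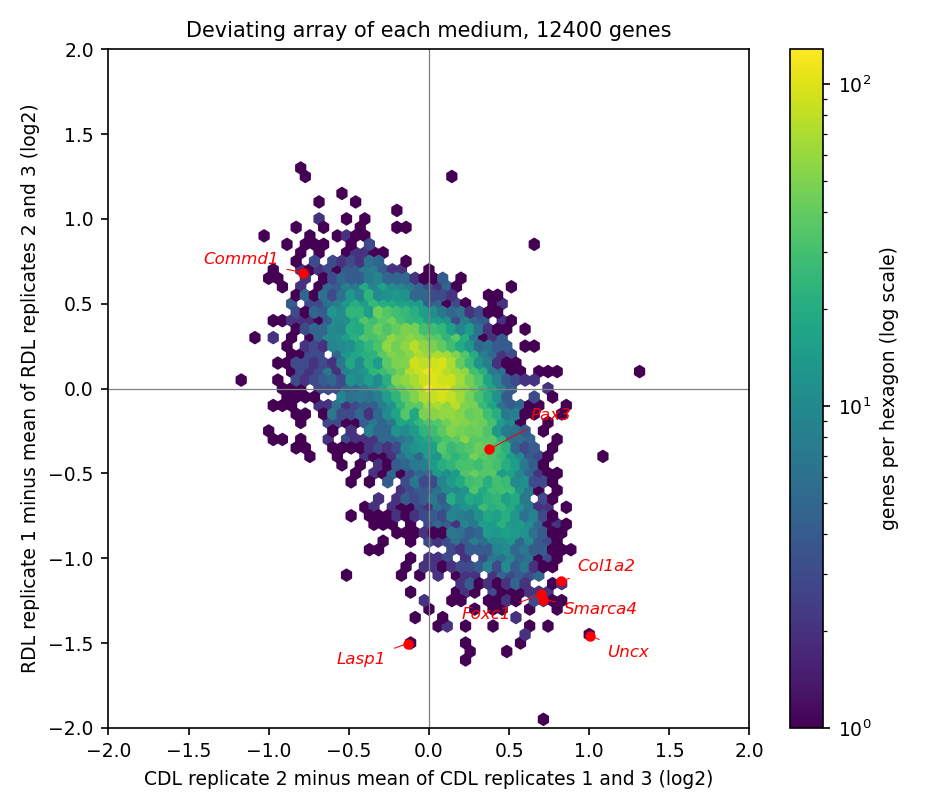
Each hexagon gathers genes by the distance of CDL replicate 2 from the mean of CDL replicates 1 and 3 (horizontal, log2) and of RDL replicate 1 from the mean of RDL replicates 2 and 3 (vertical, log2), over 12400 genes, with colour for the number of genes on a log scale and red points for 7 named genes. The cloud runs from upper left, where Commd1 lies, to lower right, where Col1a2, Foxc1 and Smarca4 lie, with r = -0.64, and Lasp1 lies low on the vertical axis, where RDL replicate 1 was below its mates.

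By its median over genes, spread between replicates was wider at day 6 than earlier. The median SD of a gene within its group was 0.153 in RDL and 0.147 in CDL at day 6, against 0.102 and 0.112 at day 4 and 0.0799 in ES cells. Genes with an SD above 0.5 numbered 434 in RDL at day 6 and 53 in CDL at day 6, against 62 and 302 at day 4 and 5 in ES cells. RDL at day 6 thus held the most genes with a large spread, while CDL at day 6 held fewer than either group of day 4.

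The genes furthest apart on the first side were a mixed group. Commd1, a COMM domain gene of copper and NF-kB biology, gave signals of 1884, 1047 and 1746 on CDL replicates 1, 2 and 3 and of 1791, 1110.4 and 1112 on RDL replicates 1, 2 and 3. CDL replicates 1 and 3 and RDL replicate 1 were high, with a gap of 0.65. Cbwd1 gave 284, 166 and 258 in CDL and 263, 155 and 162 in RDL in the same order of replicates, with a gap of 0.60. Zfp800, a zinc finger gene, gave 174, 76.5 and 117 in CDL and 123, 65.5 and 70.6 in RDL, a gap of 0.54. Both were low on the same 3 arrays as Commd1.

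H3c7, a histone H3 gene, gave 127, 64.8 and 158 in CDL and 136, 84.2 and 74.8 in RDL, and its value is uncertain because near-identical H3 genes can share probes. Rida, which encodes a deaminase of reactive imines, gave 457, 318 and 491 in CDL and 466, 276 and 305 in RDL. Med31, a Mediator subunit, gave 1082, 773 and 1113 in CDL and 1075, 751 and 703 in RDL, with a gap of 0.47. Cd36, the fatty acid translocase, gave 313, 183 and 370.0 in CDL and 304, 217 and 211 in RDL. In each of these the second side lay lower. Ddx52, Swt1, Pgap1, Chchd5 and C9orf72 completed the 12 named genes of this side, with gaps between 0.46 and 0.50.

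On the second side the separation was led by Col1a2, a chain of type I collagen. Its signals were 1165, 2006 and 1092 on CDL replicates 1, 2 and 3 and 1036, 2353 and 2229 on RDL replicates 1, 2 and 3, with a gap of 0.78. CDL replicate 2 thus lay with RDL replicates 2 and 3 and well above the other 3 arrays. Ptprf, a receptor tyrosine phosphatase, gave 465, 768 and 452 in CDL and 368, 735 and 770.1 in RDL, with a gap of 0.65. Foxc1, a forkhead gene of paraxial mesoderm and somites, gave 897, 1592 and 1059 in CDL and 683, 1623 and 1578 in RDL, with a gap of 0.57. In all of these RDL replicate 1 was the lowest of the 6 arrays.

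Fzd2, a Wnt receptor, gave 734, 1212 and 769.6 in CDL and 767, 1175 and 1170.4 in RDL, with arrays of both media at each end. Sulf2, a heparan sulfate endosulfatase that acts on Wnt and FGF ligands outside the cell, gave 1896, 2993 and 1997 in CDL and 1533, 2985 and 3025 in RDL. Hif1an, the asparaginyl hydroxylase that limits HIF activity, gave 133, 218 and 141 in CDL and 127, 241 and 231 in RDL. These 3 genes were again lower on CDL replicates 1 and 3 and RDL replicate 1. Sh3pxd2b, an adaptor of podosomes, Kctd15, Prag1, Zc3h4, Rnf26 and Dcaf7 had gaps between 0.58 and 0.66.

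Other probe sets of these 24 genes were examined as a check on single probes. There were 31, of which 23 passed the brightness filter, for 15 genes. The sides were apart in the same direction for 15 of the 23, overlapped for 8 and were apart in the opposite direction for 0. None of the other bright probe sets of Zfp800, Prag1 and Sh3pxd2b was apart, so each of these genes rests on 1 probe set. Genes outside the 15 had no other bright probe set and also rest on 1.

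**Figure D2:**
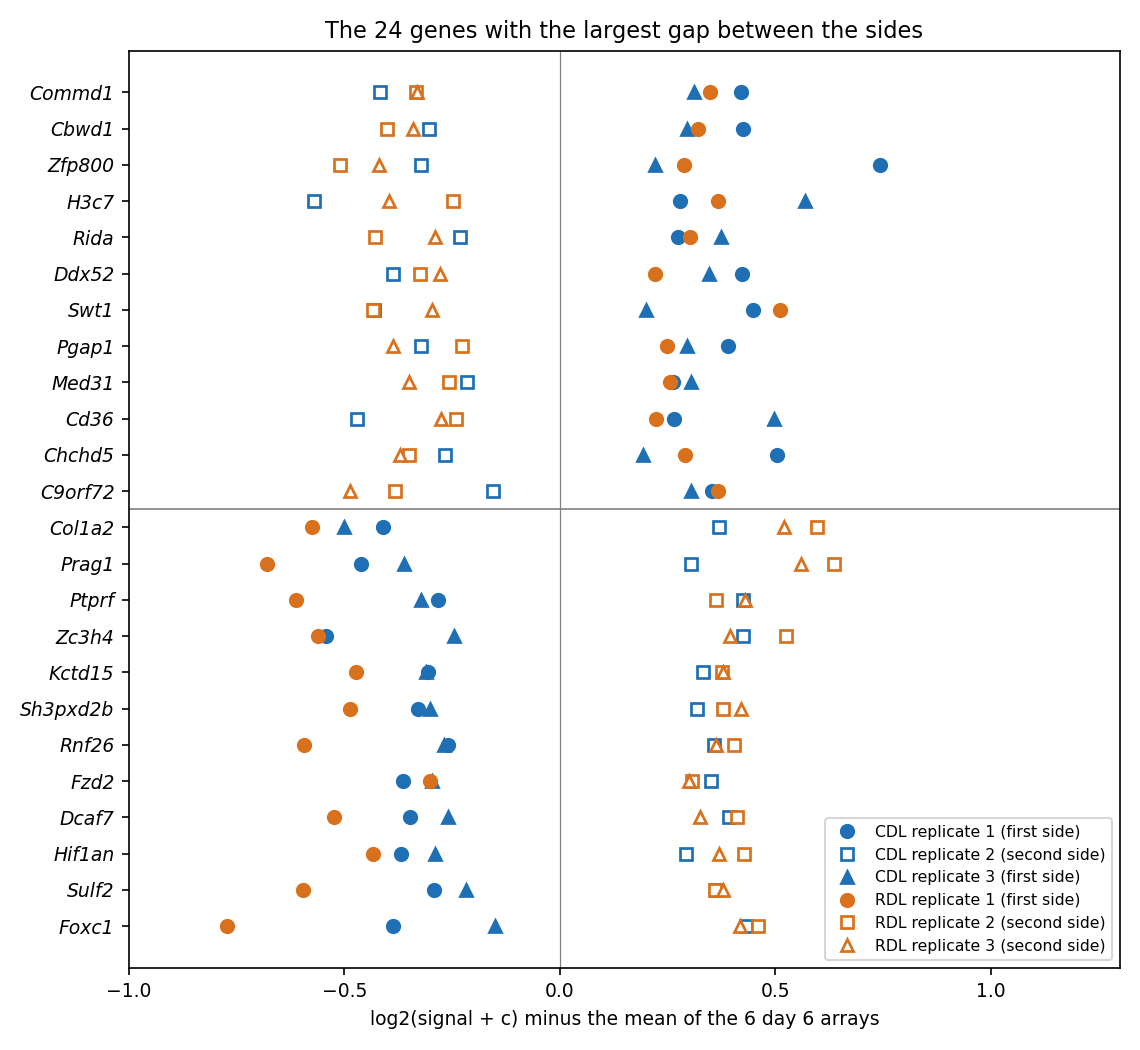
Points give log2(signal + 12.6) on each day 6 array minus the mean of the 6 arrays, for the 12 genes with the largest gap in each direction, with filled marks for the first side, open marks for the second, blue for CDL and orange for RDL. In every row filled and open marks stand on opposite sides of 0 with both colours among them, and RDL replicate 1 is the lowest of the 6 in 11 of the 12 lower rows.

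Genes for mitochondrial proteins leaned to the first side. This class and the others named by a gene family (NADH dehydrogenase, import translocases, CHCHD, proteasome, cytosolic ribosome, histone lysine enzymes, SWI/SNF, CHD, ubiquitin-specific proteases, TRIM, Frizzled and LRP, semaphorins and plexins, Zfp and Mediator) were gathered by symbol after values had been seen. Of 76 mitochondrial ribosomal protein genes tested, 44 were higher on all first-side arrays and 5 on all second-side arrays, against 15% and 21.5% of all genes. Their median deviation from the mean of the medium was 0.17 on RDL replicate 1, 0.09 on CDL replicate 1 and 0.03 on CDL replicate 3, and -0.16 on CDL replicate 2, -0.10 on RDL replicate 2 and -0.06 on RDL replicate 3. Over all genes tested the same medians lay between -0.02 and 0.04. Mrpl50, of the large subunit, gave 755, 472 and 760.1 in CDL and 822, 479 and 562 in RDL, and Mrpl21 gave 694, 479 and 668 and 770.4, 501 and 495. Mrps26, of the small subunit, went the other way, with 677, 912 and 683 in CDL and 657, 899 and 883 in RDL.

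Among 43 genes for NADH dehydrogenase subunits and assembly factors, 28 were higher on the first side and 1 on the second. These were 65.1% and 2.33%, against 15% and 21.5% of all genes. Ndufb3, an accessory subunit, gave 1715, 1175 and 1705 on CDL replicates 1, 2 and 3 and 1865, 1267 and 1288 on RDL replicates 1, 2 and 3. Ndufa3 gave 4285, 3029 and 3795 in CDL and 4582, 2978 and 3033 in RDL, and the 3 first-side arrays were the highest for both genes. Mitochondrial import translocases, which carry proteins across the mitochondrial membranes, were split 10 to 1 of 22 (45.5% and 4.55%). Timm8b among them gave 2005, 1083 and 1966 in CDL and 1847, 1251 and 1382 in RDL. Of 7 CHCHD genes, whose proteins are folded between the mitochondrial membranes, 6 were higher on the first side (85.7%) and 0 on the second. Chchd3 gave 1509, 1004 and 1411 in CDL and 1375, 941 and 969 in RDL.

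Respiratory genes did not all move one way. In the list for oxidative phosphorylation, which shares members with the NADH dehydrogenase class, 20 of 35 were higher on the first side and 10 on the second. These were 57.1% and 28.6%, against 15% and 21.5% of all genes. The second-side share was thus near that of all genes. Uqcrc1, a core subunit of complex III, gave 989.9, 1419.9 and 893 in CDL and 819, 1367 and 1272 in RDL, and Atp5d, a subunit of ATP synthase, gave 2495, 3802 and 2465 and 2133, 2862 and 2952. Both were lowest on RDL replicate 1. Genes of the mitochondrial genome were not among those tested.

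Proteasome genes leaned to the first side, with 19 of 48 higher there (39.6% against 15% of all genes) and 4 on the second. Psmd10, a chaperone of its assembly, gave 488, 289.6 and 436 in CDL and 517, 341 and 323 in RDL. Psmd3, a subunit of the regulatory particle, had the largest gap of the class in the opposite direction, with 516, 823 and 524 in CDL and 323, 777 and 785 in RDL. The class was taken by symbol and also holds Psmc3ip, whose protein acts in recombination. Of 50 genes taken by the symbols of cytosolic ribosomal proteins, which also brought in the kinase gene Rps6ka6, 12 were higher on the first side and 2 on the second, with medians between -0.02 and 0.03 on every array. With quantile normalization these counts were 7 and 3, against 2041 and 2344 over all genes in that setting. The first-side share of the class was then no longer above that of all genes. More of its genes still lay on the first side than on the second. Rps6 led the ribosomal proteins with 562, 424 and 651 in CDL and 611, 435 and 440.0 in RDL.

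Chromatin regulators lay on the other side. Of 24 histone lysine methyltransferase and demethylase genes, 14 were higher on the second side (58.3% against 21.5% of all genes) and 1 on the first. Their median deviation was -0.37 on RDL replicate 1, -0.11 on CDL replicate 1 and -0.04 on CDL replicate 3, against 0.16 to 0.17 on the 3 second-side arrays. Kdm1a, the demethylase LSD1, gave 1332, 1749 and 1212 in CDL and 1164, 1757 and 1811 in RDL. Kmt2b, a methyltransferase of histone H3 lysine 4, gave 294, 450.0 and 333 in CDL and 235, 433 and 416 in RDL. Both were highest on CDL replicate 2 and RDL replicates 2 and 3.

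SWI/SNF genes were split 1 to 8 of 13 in favour of the second side (61.5% there against 21.5% of all genes). Smarca4, the ATPase BRG1, gave 842, 1366 and 816 on CDL replicates 1, 2 and 3 and 516, 1231 and 1250.5 on RDL replicates 1, 2 and 3, with a gap of 0.54. Smarcb1, a core subunit, gave 518, 783 and 461 in CDL and 361, 641 and 607 in RDL. For both the lowest array was RDL replicate 1. Among 10 CHD remodeller genes 5 were higher on the second side and 1 on the first, and Chd4, the NuRD ATPase, gave 425, 548 and 383 in CDL and 324, 571 and 552 in RDL. The count on the second side was 2 with the mean of probe sets and 3 with quantile normalization, near the share of all genes.

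Among ubiquitin enzymes and adaptors, the ubiquitin-specific proteases leaned to the second side, while TRIM genes lay near the share of all genes there. Of 45 ubiquitin-specific proteases 17 were higher on the second side (37.8% against 21.5% of all genes) and 3 on the first. With quantile normalization these counts were 13 and 3. Of 40 TRIM genes 12 were higher on the second side (30%) and 0 on the first, against 15% of all genes. Trim28, the corepressor KAP1, gave 2855, 4218 and 2886 in CDL and 2309, 4017 and 3932 in RDL. Trim71, an RNA-binding ubiquitin ligase of early development, gave 647, 1042 and 675 in CDL and 448, 940.1 and 882 in RDL.

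Single matrix genes were divided like Col1a2, while their list as a whole lay near the share of all genes. Of 35 collagen and matrix genes, 10 were higher on the second side (28.6% against 21.5% of all genes) and 1 on the first, and with quantile normalization the counts were 8 and 1. Col4a1, a chain of basement membrane collagen, gave 799, 1438 and 885 in CDL and 559, 1200.3 and 1084 in RDL. Fn1, fibronectin, gave 1423, 1973 and 1303 in CDL and 791, 1661 and 1663 in RDL, and RDL replicate 1 was far below the other 5 arrays. Matrix proteases and the IGF axis were split 0 to 7 of 16 (43.8% on the second side against 21.5% of all genes). Igfbp5, an IGF-binding protein, gave 4451, 6749 and 4211 in CDL and 2908, 5499.8 and 4978 in RDL.

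Guidance receptors differed among themselves. Eph receptors and ephrins, which set repulsive boundaries between cells, were split 0 to 6 of 15 (40% on the second side against 21.5% of all genes), and Efna5 gave 198, 333 and 235 in CDL and 247, 367 and 404 in RDL. Semaphorins and plexins were split 1 to 7 of 25, and their 28% on the second side was near the share of all genes, while Plxnb2 gave 151, 229.5 and 168 in CDL and 149, 225 and 219 in RDL. Frizzled and LRP receptors, through which Wnt ligands signal, were split 0 to 7 of 22 (31.8%). Fzd1 gave 341, 510.1 and 393 in CDL and 362, 714 and 656 in RDL, and Lrp1 gave 245, 356 and 258 and 177, 373 and 318. The chemokine gene Cxcl12 gave 1327, 2461 and 1529.7 in CDL and 1414, 2406 and 2132 in RDL.

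**Figure D3:**
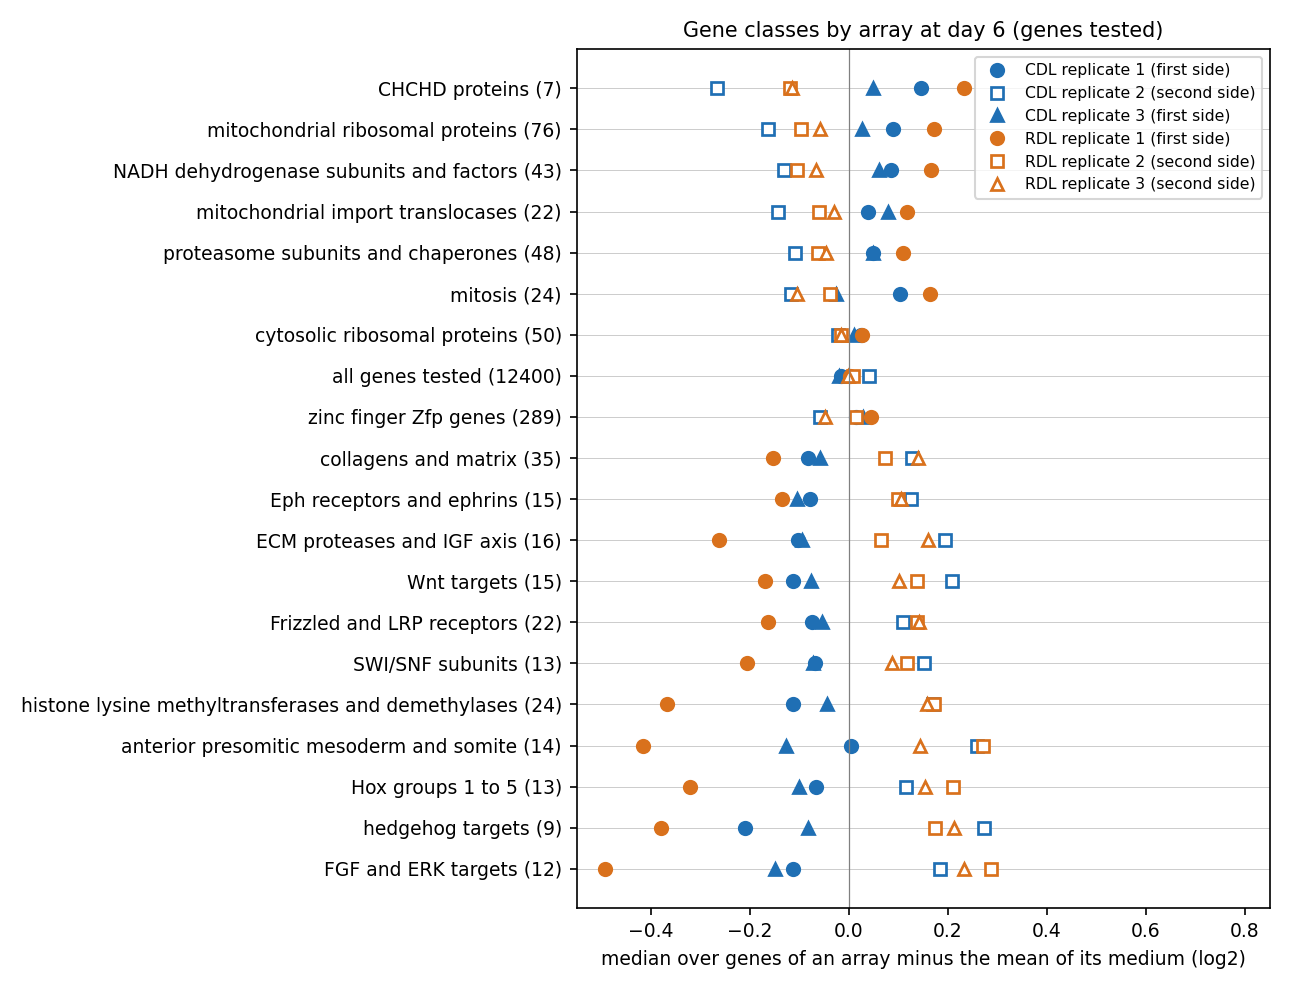
Points give, for each class and each day 6 array, the median over the class's tested genes of log2(signal + 12.6) minus the mean of the array's own medium, with the number of genes in brackets and marks as in the plot of single genes. Mitochondrial classes lie right of 0 on the first side and left on the second, chromatin, Hox and signalling classes lie the other way, and FGF and ERK targets reach -0.49 on RDL replicate 1.

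Targets of FGF and ERK signalling, which keep the presomitic state, leaned to the second side. None of 12 was higher on the first side and 5 were higher on the second (41.7% against 21.5% of all genes). Their median deviation was -0.49 on RDL replicate 1, against 0.18 on CDL replicate 2, 0.29 on RDL replicate 2 and 0.23 on RDL replicate 3. Spred2, a feedback inhibitor of ERK, gave 361, 637 and 393 in CDL and 204, 549 and 544 in RDL. Il17rd, an antagonist of FGF receptors, gave 492, 743 and 506 in CDL and 410.2, 676 and 722 in RDL, and Spry2, another inhibitor, gave 218, 247 and 211 and 171, 305 and 292. RDL replicate 1 was the lowest array for each of the 3. Targets of YAP and TEAD, which respond to cell shape and tension, were split 0 to 5 of 11 (45.5%), with Ajuba, Amotl1, Ptpn14 and Ccn1 at gaps between 0.20 and 0.29.

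Hedgehog pathway genes, which mark the response to notochord and floor plate signals, were split 0 to 3 of 9 (33.3% on the second side against 21.5% of all genes). Gas1, a coreceptor, gave 2044, 3521 and 2462 in CDL and 1902, 3684 and 3304 in RDL. Boc, another coreceptor, gave 176, 288 and 170.5 in CDL and 171, 250.4 and 259.5 in RDL, and Gli2, a transcription factor of the pathway, gave 402, 687 and 447 and 248, 639.7 and 571. Among Wnt targets only Ccnd2, a cyclin gene, was apart, as 1 of 15, with 1530.4, 1942 and 1622 in CDL and 1143, 2016 and 1994 in RDL. Yet 11 of the 15 followed the within-medium order, with CDL replicate 2 highest of CDL and RDL replicate 1 lowest of RDL, against 32.5% of all genes. In the test of media at day 6 (limma, threshold 0.05 on the adjusted p), 4 of the 15 were higher and 2 lower in CDL, against 3.68% and 3.94% of all genes.

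Hox genes of groups 1 to 5, which pattern the anterior trunk, were split 0 to 5 of 13 (38.5% on the second side against 21.5% of all genes). All 13 were below the mean of RDL on RDL replicate 1, against 6141 of the 12400 genes tested. Hoxb5 gave 152, 253 and 159.8 in CDL and 83.3, 228 and 203 in RDL, and Hoxa3 gave 157, 207 and 153 and 103, 193 and 201. Hox groups 6 to 9 were split 0 to 1 of 9, by Hoxb6. Somite and anterior presomitic genes were split 1 to 2 of 14 (7.14% and 14.3%), below the 15% and 21.5% of all genes. Of the 14, 9 followed the within-medium order of the second side, against 32.5% of all genes. Their median deviation was -0.42 on RDL replicate 1 and 0.26 on CDL replicate 2. Apart from these counts, the sclerotome gene Pax1 gave 197, 363 and 261 in CDL and 147, 294 and 294 in RDL. Twist1, a mesenchymal bHLH gene, gave 620.1, 789 and 635 in CDL and 568, 806 and 837 in RDL.

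Notch and segmentation clock genes were split 1 to 2 of 17 (5.88% and 11.8%), below the 15% and 21.5% of all genes. Of the 17, 10 were in the within-medium order of the second side, against 32.5% of all genes. Notch2, a receptor, gave 369, 612 and 426 in CDL and 183, 491 and 536 in RDL. Jag1, a ligand, gave 176, 213 and 174 in CDL and 131, 266 and 254 in RDL. For both the lowest array was RDL replicate 1.

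Other classes were divided less evenly or changed with the scaling. Zinc finger genes with Zfp symbols were split 54 to 59 of 289, and the lean turned to the other side with quantile normalization and with the mean of probe sets. Mediator subunits were split 11 to 8 of 30, with Med31 higher on the first side and Med15, Med16 and Med25 on the second. For Mediator the shares were 36.7% and 26.7%, both above those of all genes. Glycolysis genes were split 1 to 5 of 17 (29.4% on the second side), and 1 to 3 with quantile normalization. Hypoxia response genes were split 1 to 2 of 26 (3.85% and 7.69%), below the shares of all genes, and endoplasmic reticulum stress genes 2 to 4 of 17. Ribosome biogenesis (6 to 5 of 24), DNA replication (9 to 5 of 25), heat shock (2 to 1 of 18), p53 targets (2 to 5 of 20), RNA splicing (2 to 4 of 25), neural crest (1 to 0 of 11) and BMP targets (0 to 1 of 13) changed their lean under at least 1 other scaling or probe set choice.

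Mitosis genes often followed the within-medium order of the first side without being apart. Only 4 of 24 were apart, 1 on the first side and 3 on the second, while 15 had CDL replicate 2 lowest and RDL replicate 1 highest of its medium, against 25% of all genes. Their median deviation was 0.16 on RDL replicate 1 and 0.10 on CDL replicate 1, against -0.12 on CDL replicate 2. The kinase gene Plk1 went the other way, with 262, 339 and 214 in CDL and 249, 535 and 496 in RDL, as did Aurkb, with 147, 205 and 153 and 143, 286 and 313. Between media, 10 of the 24 were lower in CDL at day 6 and 0 higher (limma, threshold 0.05 on the adjusted p), with a median difference of -0.44. Over all genes 3.94% were lower and 3.68% higher.

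Lists of other cell types that a Pax3 reporter sort could hold were read against the shares of all genes, 15% and 21.5%. Of 24 pluripotency genes 3 were higher on the second side (12.5%) and 0 on the first, and the defining Nanog lay between 20.1 and 44.6 on the 6 arrays, highest on CDL replicate 2. Zfp42 gave 20.6, 48.1 and 27.0 in CDL and 24.8, 20.1 and 25.5 in RDL, highest on CDL replicate 2. Intermediate mesoderm genes were split 0 to 2 of 5 (40%), by Emx2 and Six2, and notochord genes 0 to 1 of 5 (20%), by Foxa2. Neural genes were split 0 to 2 of 19 (10.5%), endothelial and blood genes 1 to 0 of 13, lateral plate and cardiac genes 0 to 1 of 12, endoderm genes 0 to 1 of 13 and epithelial genes 0 to 1 of 21. Of the defining markers, the endoderm gene Sox17 was lower on RDL replicate 1 than on its mates, with 25.4, 26.6 and 26.9 in CDL and 49.7, 117 and 119.9 in RDL, and the neural crest gene Sox10 did not order the sides, with 48.2, 53.3 and 61.3 and 52.8, 53.1 and 49.6.

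Summed over the 24 pluripotency genes, the signal was highest on CDL replicate 2, at 3705 against 2799 and 2922 on CDL replicates 1 and 3 and between 2266 and 2552 in RDL. The neural list summed to between 2187 and 3742 on the first side and between 2794 and 3633 on the second. The part of other cell types in the split was not tested.

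The 10 genes with the largest spread within a medium whose sides overlapped had RDL replicate 1 as the highest or the lowest of the 6 arrays in 9 of 10 cases. This is partly fixed by choosing genes for their spread, and nothing is read from it. RDL replicate 1 had the largest median absolute deviation from its group mean of all arrays, at 0.155. Uncx, a homeobox gene of the caudal somite, gave 968, 1748 and 769 in CDL and 175, 543 and 465 in RDL, with the media apart and, within each medium, the second side higher. Lasp1, an actin-binding gene, gave 510.4, 461 and 503 in CDL and 389.9, 1105 and 1152 in RDL. Sox2, a gene of pluripotent and neural cells, gave 194, 262 and 254 in CDL and 61.3, 213 and 192 in RDL. The RNA-binding gene Lin28a gave 449, 186 and 198 in CDL and 494, 246 and 282 in RDL, high on replicate 1 of both media and not on CDL replicate 3. Dus4l, highest on RDL replicate 1, gave 47.0, 17.1 and 30.7 in CDL and 94.7, 32.5 and 28.5 in RDL.

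Mex3d, Ampd2, Zfp362 and Zfp703 were also lowest on RDL replicate 1. The imprinted gene Peg10 gave 15.5, 22.7 and 24.8 in CDL and 22.0, 69.1 and 86.8 in RDL, high on RDL replicates 2 and 3 only. The reporter gene Pax3 gave 515, 618 and 435 in CDL and 252, 366 and 292 in RDL, with CDL replicate 2 highest of CDL and RDL replicate 1 lowest of RDL, while the sides overlapped and the media did not. Msgn1, the presomitic reporter gene of day 4, gave 44.3, 43.9 and 43.6 in CDL and 29.0, 31.1 and 25.9 in RDL. Its media did not overlap, and no side order was seen.

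Technical measures also separated the sides. Of 18 hybridisation control probe sets, which read bacterial transcripts added in fixed amounts, 15 were higher on every first-side array than on any second-side array, and 0 the reverse. The 3′ probe set of bioD lay between 1909 and 1936 on the first side and between 1642 and 1685 on the second. That of bioC lay between 318 and 346 on the first side and between 257 and 262 on the second. The 9 earlier arrays spanned 1499 to 1700 for bioD and 242 to 339 for bioC, so the bioD signals of the first side lay above all others.

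The signal of actin 3′ ran the other way, between 8596 and 9364 on the first side and between 11062 and 11467 on the second. The ratio of 3′ to 5′ actin signal, higher where RNA is shorter, lay between 1.608 and 1.90 on the first side and between 1.55 and 1.601 on the second. Both limits of the second side lay within the 1.43 to 1.85 of the 9 earlier arrays, and RDL replicate 1 at 1.90 lay above them. The Gapdh ratio lay between 1.013 and 1.019 on the first side and between 1.001 and 1.011 on the second. Both ranges lay within the 0.974 to 1.111 of the 9 earlier arrays, and the Gapdh 3′ and 5′ signals overlapped between the sides. Array upper quartiles were 119 to 126 and 129 to 133, while medians overlapped. The part of labelling, hybridisation and RNA quality in the split was not tested. The labels name Trizol and a column kit for RNA extraction without saying which sample had which, and labelling ran through 2 cycles of amplification.

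**Figure D4:**
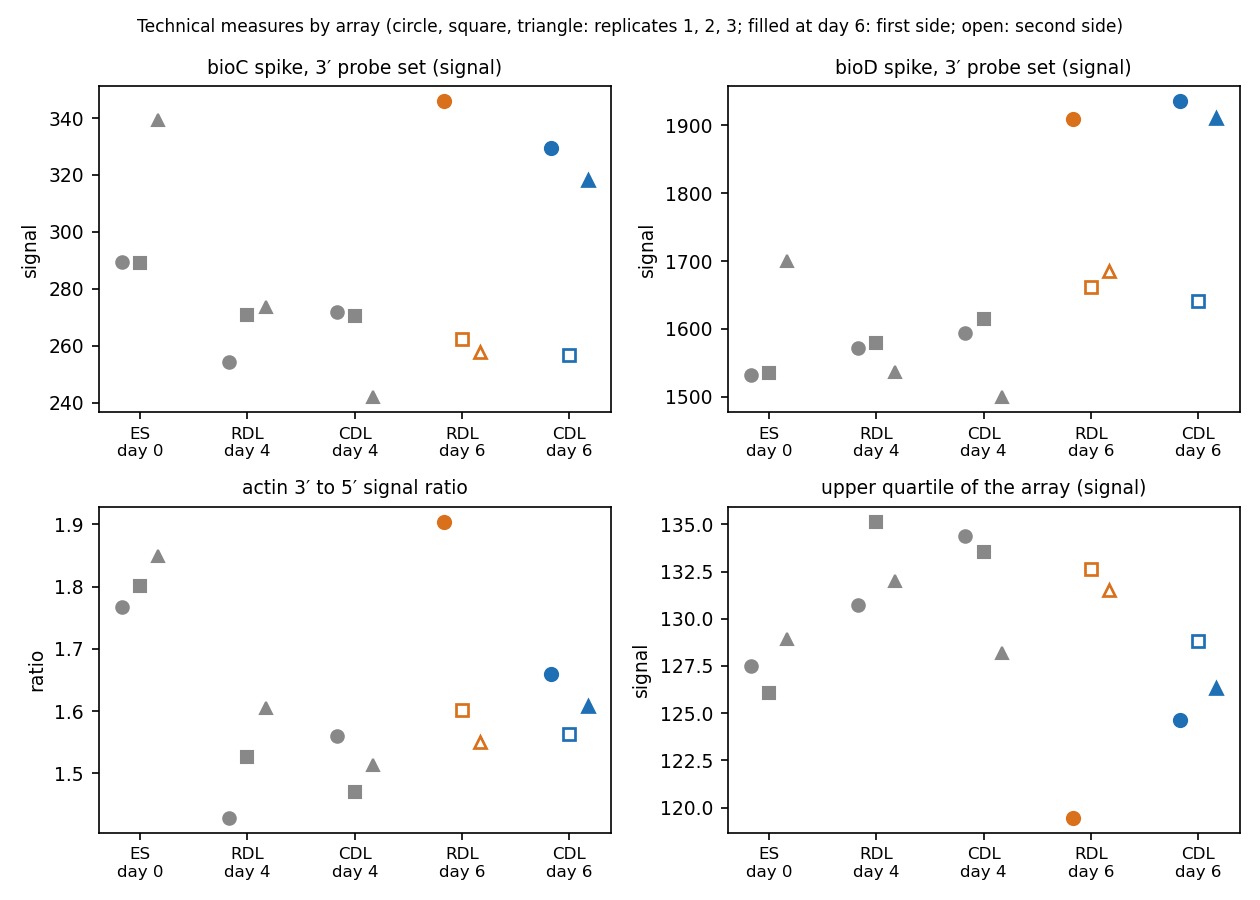
Panels give, for each of the 15 arrays, the signal of the bioC and bioD hybridisation controls, the ratio of 3′ to 5′ actin signal and the upper quartile of all signals, with grey marks for days 0 and 4, blue for CDL and orange for RDL at day 6, filled for the first side and open for the second. At day 6 filled and open marks do not overlap in any panel, and for bioD the 3 filled marks lie between 1909 and 1936, above all other arrays.

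Genes higher on either side differed in the region before their starts. Of the 12400 genes tested, 9989 matched an entry of RefSeq (build GRCm38.p6) by symbol, and the 250 bases before the first listed start were read. Median G and C content was 58% for 1526 genes higher on the first side, 63.2% for 2183 genes higher on the second and 59.6% for 6280 genes whose sides overlapped, against 60% for all matched genes. A GC box (GGGCGG or CCGCCC, either strand) was found in 56.2% of first-side genes, 67.7% of second-side genes and 59.5% of all matched genes, and in 32.7% of all 32851 windows of that length in the table. At a gap of at least 0.25 the first-side share with a GC box was 64.0%, above that of all matched genes, and the second-side share was 68.4%, so the lower share on the first side did not hold at the larger gap. Median G and C content at that gap was 58.6% and 63.6%. Single genes varied around these values: of the printed windows, Ptprf on the second side held 59.2% G and C, below the median of all matched genes.

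The matched genes were also cut into 5 bins of near equal size by G and C content. From the lowest to the highest bin, the share higher on the first side fell from 19.9% through 17.2%, 15.2% and 14.1% to 9.79%. Over the same bins the share higher on the second side rose from 13.1% through 18.9%, 21.2% and 25.2% to 31.4%. Among 67 matched genes of mitochondrial ribosomal proteins the median G and C content was 58.4%, and 49.3% held a GC box. Among 38 matched genes of the NADH dehydrogenase class these values were 58.6% and 47.4%. These shares describe letters in a window and not binding.

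Signal level moved with the counts as well. The median of the mean log2 level was 8.71 for first-side genes, 7.94 for second-side genes and 6.90 for genes whose sides overlapped. The part of base composition and signal level in the split was not tested.

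**Figure D5:**
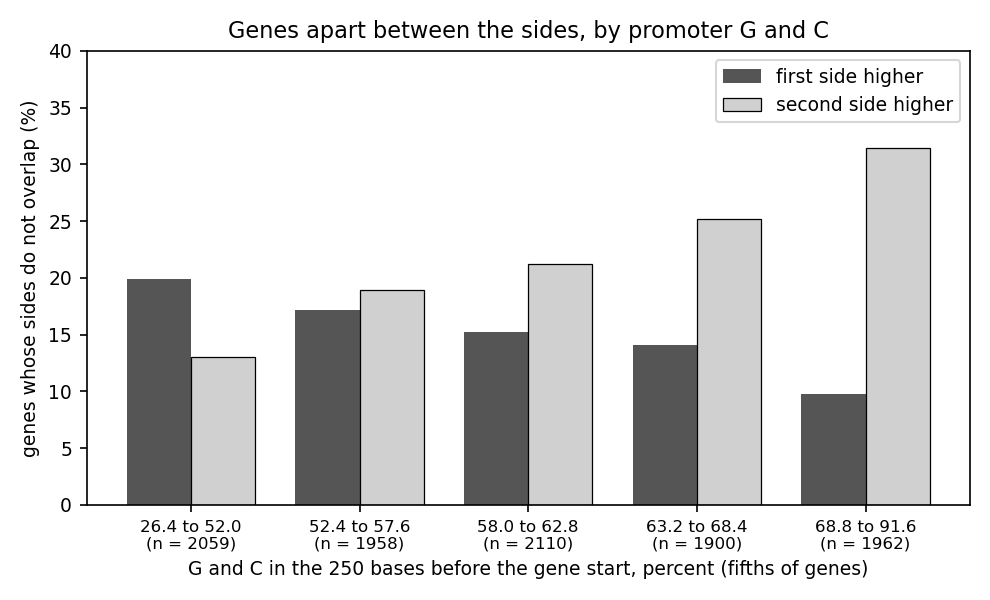
Bars give the percentage of genes in each of 5 bins by G and C content of the 250 bases before the start whose 3 first-side arrays all lay above (dark) or all below (light) the 3 second-side arrays, over 9989 genes, with the range of G and C content and the number of genes under each bin. Dark bars fall from 19.9% to 9.79% and light bars rise from 13.1% to 31.4%.

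The labelled comparison of media at day 6 lies across the split, since CDL has 2 of its 3 arrays on the first side and RDL 2 of its 3 on the second. Tested over all 15 arrays with limma and Benjamini-Hochberg adjustment, 456 genes (3.68%) were higher and 488 (3.94%) lower in CDL, 944 in all (7.61%). None of the 24 genes with the largest gaps was called at an adjusted p under 0.05, which is partly fixed by choosing genes that vary within each medium. Col1a2 differed by -0.36 ± 0.27 (SE, adjusted p = 0.537) and Commd1 by 0.21 ± 0.19 (SE, adjusted p = 0.638), in the limma test. Of the 1859 first-side genes 16 were higher in CDL and 0 lower, and of the 2672 second-side genes 0 were higher and 17 lower. Both the sign and the small number of these calls are partly fixed by how the media fall on the sides, and nothing is read from them. Genes whose sides overlapped held 440 (5.59%) and 471 (5.99%).

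Leaving out RDL day 6 replicate 1 puts all of RDL on the second side, and the count rose from 944 to 1513. In that setting the comparison of media is in part a comparison of the sides, so no p-value of a gene chosen for its gap is given from it.

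Pax3 itself was called in the comparison over all 15 arrays, at 0.76 ± 0.15 (SE, adjusted p = 0.00323) in limma, and Uncx at 1.59 ± 0.33 (SE, adjusted p = 0.00599). Fitted on the 6 day 6 arrays alone, with 442 genes called, neither passed, at limma adjusted p = 0.0664 for Pax3 and 0.0932 for Uncx. Both differences were as large in that fit. Of the mitochondrial ribosomal proteins 0 of 76 were called between media, and of the histone lysine methyltransferases and demethylases 0 of 24, at limma's adjusted threshold, against 7.61% of all genes. Both classes were gathered after values had been seen and vary within each medium along the split. Few calls between media were thus partly fixed, and nothing is read from these counts.

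The comparison of media at day 4 used only arrays that had no part in finding the sides, among them CDL replicate 1 with its high pluripotency genes. Fitted with limma on the 9 arrays of days 0 and 4, 507 genes (4.09%) were higher and 454 (3.66%) lower in CDL, 961 in all (7.75%). Of the first-side genes 37 (1.99%) were higher and 159 (8.55%) lower, and of the second-side genes 92 (3.44%) were higher and 44 (1.65%) lower. Genes whose sides overlapped gave 4.8% and 3.19%. The share of first-side genes lower in CDL was thus 8.55% against 3.66% of all genes, a difference that was not tested. Without CDL day 4 replicate 1 the fit called 1061 genes, with 43 first-side genes higher and 183 lower and 93 second-side genes higher and 52 lower. The part of that array's pluripotency genes in the other results was not tested. The count of first-side genes also rested on single arrays, since 55 were lower without CDL day 4 replicate 2, 55 without RDL day 4 replicate 2 and 72 without RDL day 4 replicate 1. Second-side genes higher in CDL likewise numbered 35, 42 and 47 in these 3 settings. In the fit over all 15 arrays 23 first-side genes were higher and 19 lower. That fit takes part of its spread from the day 6 arrays, on which these genes were chosen for differing. It therefore cannot serve as a check, and nothing is read from the drop.

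Among mitochondrial ribosomal proteins 9 of 76 were lower in CDL at day 4 and 0 higher, with a median difference of -0.10 against 0.00 for all genes. Of the NADH dehydrogenase class 3 of 43 were lower and 0 higher, a count too small to set that class apart. Over all genes 3.66% were lower and 4.09% higher. These class counts were not recomputed without single arrays. No histone lysine methyltransferase or demethylase, SWI/SNF or FGF and ERK target gene was called at day 4. These classes held 24, 13 and 12 genes, and 7.75% of all genes were called. Classes of that size would hold few calls at that share, so nothing is read from their absence. At an unadjusted p under 0.05 the day 4 comparison called 2700 genes in all.

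Single genes of the split had medium differences of their own at day 4. Col1a2 gave 288, 323 and 295 on RDL replicates 1, 2 and 3 and 564, 660.5 and 476 on CDL replicates 1, 2 and 3 at day 4, a difference of 0.87 ± 0.13 (SE, adjusted p = 0.0023) in limma. Fzd2 gave 802, 828 and 827 in RDL and 454, 568 and 566 in CDL, a limma difference of -0.63 ± 0.09 (SE, adjusted p = 0.0025). Foxc1 gave 1208, 1422 and 1368 in RDL and 642, 1012 and 1018 in CDL, a limma difference of -0.60 ± 0.15 (SE, adjusted p = 0.0375), and lost its call without any 1 of the 3 RDL arrays, with adjusted p between 0.0606 and 0.131. Without CDL day 4 replicate 1 all 3 kept their calls, with 0.87 for Col1a2 (limma adjusted p = 0.00178), -0.52 for Fzd2 (adjusted p = 0.00143) and a smaller -0.38 for Foxc1 (adjusted p = 0.0194). The arrays of the 2 media did not overlap in any of the 3 genes. In the fit over all 15 arrays none of the 3 passed, with limma adjusted p of 0.0886 for Col1a2, 0.0697 for Fzd2 and 0.323 for Foxc1. Part of the spread in that fit comes from the day 6 arrays, on which these genes were chosen for their gaps, so nothing is read from the loss.

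Comparisons of day 6 with day 4 share the day 6 arrays with the split, and differ also in cell line, strain and reporter. In RDL, limma called 1711 genes higher (13.8%) and 2127 lower (17.2%) at day 6, and in CDL 2155 higher (17.4%) and 2726 lower (22%). Of the first-side genes 276 were higher and 141 lower at day 6 in RDL, and 694 and 103 in CDL. Of the second-side genes 214 were higher and 620 lower in RDL, and 180 and 964 in CDL. These counts are given side by side only.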

How the data were processed

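Expression was read on Affymetrix mouse arrays, 15 in all, in 5 labelled groups of 3. The deposited values are signal intensities on a linear scale, made with MAS5 per the submitters' processing notes; further steps are not given in the sources used here. Of 45101 probe sets, 34945 carried 1 gene symbol, 932 several and 9160 none, and 64 were controls. Values were taken as log2(signal + 12.6). Each gene was read by its single-symbol probe set of highest mean, and 12400 of 18193 genes exceeded the array median on at least 3 arrays.

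Labelled groups were compared with limma 3.58.1 in R 4.3.3 (empirical Bayes with an intensity trend, Benjamini-Hochberg adjustment, threshold 0.05): day 6 media and days over all 15 arrays, day 4 media over the 9 arrays of days 0 and 4. Fits were tested on simulated data. Counts and figures used Python 3.11.15 with pandas 2.3.3, numpy 2.4.6 and matplotlib 3.10.9.

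The sides, the members and the gene lists were chosen with earlier results of these data known. Genes were named by rule, leaving out symbols of clones and predicted genes: the 12 largest gaps in each direction, the 10 largest within-medium SDs among overlapping genes, up to 4 members per list by gap, and Pax3 and Msgn1; cell type markers were named from a list. Same-numbered arrays of RDL at days 4 and 6 deviated together, with correlations of 0.28, 0.26 and 0.22, which met the rule used for pairing. RDL at day 4 and CDL at day 6, which are not compared here, also met it, with 0.28, 0.20 and 0.11. Days 4 and 6 used different cell lines, so same-numbered samples cannot be paired cultures, and the numbers are shared labels. A block by replicate number was still fitted as a setting. With it, calls between days in RDL were gained by Cbwd1 (-0.49, limma adjusted p = 0.018) and Sh3pxd2b (0.57, adjusted p = 0.0329). Ampd2 also gained such a call (-0.62, limma adjusted p = 0.0321). These calls rest on shared numbers alone, and nothing is read from them.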

Additional observations from a re-analysis of the deposited data

Results flagged for a closer look

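Of the named genes, 3 had a medium difference that itself differed between the days, by the interaction of medium and day in limma over all 15 arrays. For Pax3 the log2 difference of CDL from RDL at day 6 minus that at day 4 was 1.61 (SE 0.21, adjusted p = 0.000158), with CDL higher in 3 of 3 arrays at day 6 and lower in 3 of 3 at day 4. For Uncx it was 2.58 (SE 0.47, adjusted p = 0.00325), with the same order of arrays as Pax3. For Cd36, a gene higher on the first side, it was -1.003 (SE 0.27, adjusted p = 0.0453), with CDL higher in 3 of 3 arrays at day 4 and the media overlapping at day 6. The days also differ in cell line, strain and reporter, so day cannot be told apart from these.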

How the results depend on the processing

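The count of genes apart by at least 0.5 was 44 and moved with the scale: it was 74 with an added constant of 1, 20 with 4 times the constant, 22 with the mean of probe sets, 4531 for any gap, 4385 for any gap with quantile normalization (chosen after seeing the data) and 0 at a gap of 1. Leaving out 1 array at a time gave 57 to 256, as fewer arrays must then separate. For media at day 6, 944 genes were called by limma, against 1776 without RDL day 6 replicate 1 and CDL day 4 replicate 1, 442 on the 6 day 6 arrays only, 3195 without RDL day 6 replicate 1 and CDL day 6 replicate 2 together (chosen after seeing the data), and 684 to 1513 leaving out 1 array, highest without RDL day 6 replicate 1. For media at day 4, 961 genes were called, against 547 over all 15 arrays and 521 to 1061 leaving out 1 array, with 521 without RDL day 4 replicate 2 and 585 without CDL day 4 replicate 2. The fit with 3195 calls sets the first side against the second, on the arrays that chose the sides, so it is no test of media and nothing is read from it. The causes of the other moves were not tested. Between days, 3838 genes in RDL became 2921 to 3681 and 4881 in CDL became 3758 to 5446 when 1 array was left out. With the replicate block the counts were 1143 for media at day 6, 888 for media at day 4, 4210 for RDL days and 5251 for CDL days. Same-numbered arrays of the 2 media at day 6 correlated at 0.61, 0.59 and -0.24. The numbers there too are shared labels and no pairing, and nothing is read from the counts with the block. Of 36 named genes the block changed 1 call for each comparison of media, 3 for CDL days and 3 for RDL days. Of single-gene values in labelled comparisons, 2039 kept their side of the threshold, 87 gained a call and 70 lost one. No value reversed. Signals near the array median carry little signal over background, and 3 arrays a group limit every comparison.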
